A study of Bos taurus with 6 samples.

Results

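Serine, proline and asparagine can be made inside the cell, and serine is also the main donor of the carbon units that folate carries to nucleotide synthesis. The 10 genes described here encode enzymes of these routes: PHGDH, PSAT1 and PSPH of serine synthesis, SHMT1, SHMT2, MTHFD2 and ALDH1L2 of folate metabolism, ASNS of asparagine synthesis, and ALDH18A1 and PYCR1 of proline synthesis. They were taken by their gene symbols from the deposited array table, which lists each of them for 1 transcript cluster (a group of probes that reads 1 gene), so the 10 genes are 10 of the 24415 clusters. No cluster lists any of them among several symbols.

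The arrays hold RNA of primary bovine granulosa cells, the estradiol-producing cells of the ovarian follicle, aspirated from small and medium follicles, frozen, thawed and kept for 4 days without serum on collagen. On day 2, 3 cultures received for 2 h 50 μM PD98059, an inhibitor of the kinase MEK that prevents the phosphorylation of ERK, and 3 cultures received DMSO, the vehicle. All 6 cultures grew with FSH, IGF1 and androstenedione, and according to the methods in medium with added glutamine and nonessential amino acids. The inhibitor was removed with all of the medium according to the methods and with part of it according to the labels, and the RNA is thus from cells 2 days after the 2 h exposure in either case. The paper counts its replicates as independent cell cultures. No source says if 1 preparation of cells was split over the 6 dishes, so the spread behind each p-value is that of dishes and may be technical.

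PHGDH makes the first committed step from glycolysis to serine, and PSAT1 and PSPH complete the route. Folate then takes a carbon unit from serine through SHMT2 in mitochondria or SHMT1 in the cytosol, MTHFD2 oxidises the mitochondrial unit, and ALDH1L2 can burn it off there with the gain of NADPH. ASNS builds asparagine from aspartate, while ALDH18A1 and PYCR1 make the first and the last step from glutamate to proline, an amino acid abundant in collagen. In other mammalian cells many of these genes are known targets of ATF4, the transcription factor of the amino acid and stress response.

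The values are log2 signals after the Robust Multichip Average (RMA) method, so a difference of 1 is a change of 2-fold. A cluster was called higher or lower at a Benjamini-Hochberg adjusted p under 0.05 from limma, a moderated linear model over all clusters, together with a fold above 1.4 (0.49 on the log2 scale). Fold changes are PD98059 minus DMSO throughout, and intervals are 95% intervals of the fit. A signal below 3.72, the 95th percentile of 377 olfactory receptor clusters, is called near background. In bulk RNA of this kind, fewer cells of a type and less RNA per cell cannot be told apart.

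Transcripts of enzymes of serine, folate, asparagine and proline metabolism were lower in the PD98059-treated cells, but not at every step. The arrays read RNA only, not the amount or activity of an enzyme or the level of an amino acid. Of the 10 genes, 7 were called lower, 0 were called higher and 3 were not called. Over all clusters, 434 (1.78%) were called lower and 222 (0.909%) higher. The 10 genes were chosen with earlier results of these arrays known, so their share beside that of all clusters is only a description. The median log2 fold change of the 10 genes was −0.86, beside 0.01 for all 24415 clusters. In 8 of the 10 genes, the values of the PD98059-treated cultures lay wholly below those of the DMSO-treated cultures, as was the case for 13.0% of all clusters. Of the 7 called genes, PYCR1, ALDH1L2 and PSAT1 exceeded a fold of 2, a size that 68 called clusters reached on the lower side.

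**Figure D1:**
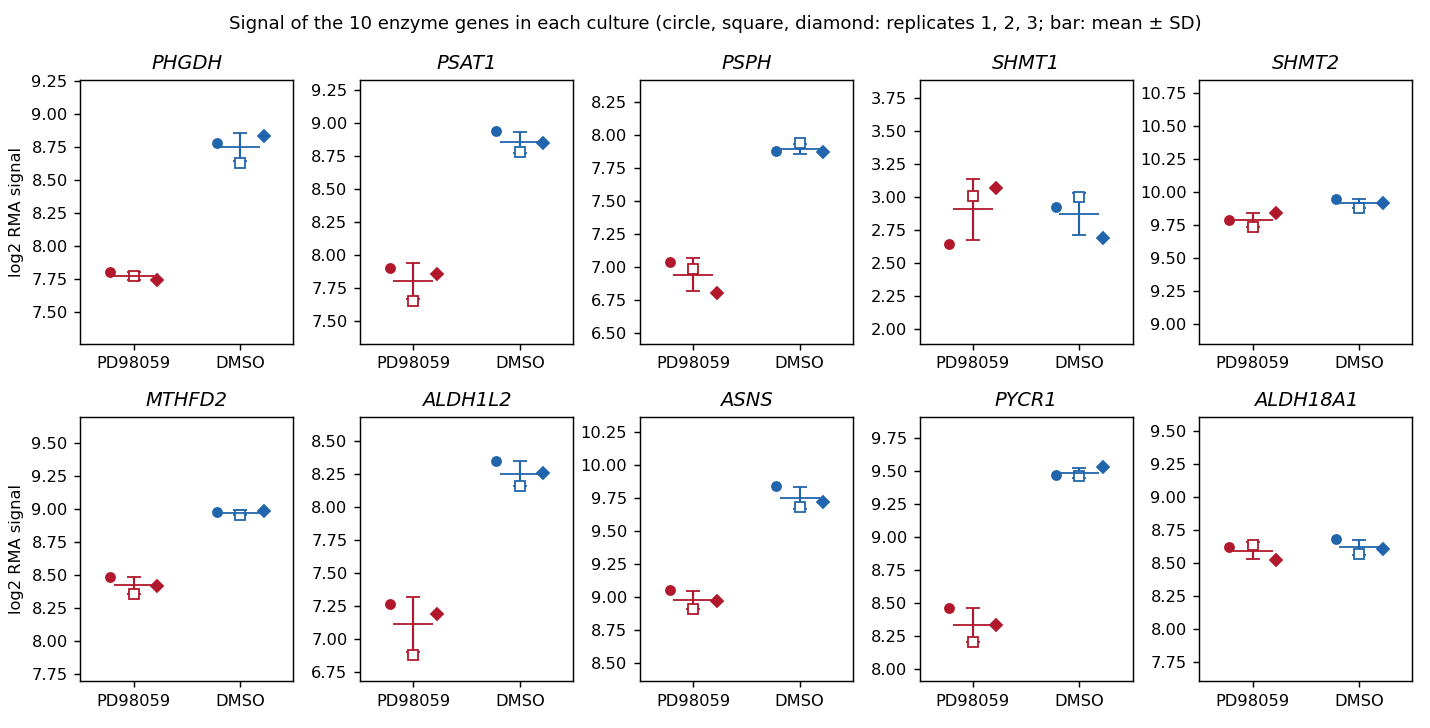
Each panel shows the log2 RMA signal of 1 gene in the 3 PD98059-treated and the 3 DMSO-treated cultures, with the mean and SD as bars and the replicates as circles, squares and diamonds; every panel spans 2 log2 units. The groups lie apart in 8 genes and overlap in SHMT1 and ALDH18A1. Among the 7 called genes the gap is widest in PYCR1 (1.0 log2 unit) and narrowest in MTHFD2 (0.47). In SHMT2, not called, the groups nearly touch, at 9.84 with PD98059 and 9.88 with DMSO.

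The transcripts of all 3 enzymes of serine synthesis were called lower, with folds of 1.94 to 2.08. The first of them, PHGDH, had log2 signals of 7.80, 7.77 and 7.74 in the PD98059-treated cultures, against 8.78, 8.63 and 8.83 in the DMSO-treated cultures. The highest treated culture thus stood 0.83 below the lowest control. This is a log2 fold change of −0.98 (standard error 0.08, interval −1.16 to −0.80, limma adjusted p = 0.00269), a fold of 1.97. PSAT1, the aminotransferase that follows it, measured 7.90, 7.65 and 7.86 with PD98059, against 8.94, 8.78 and 8.85 with DMSO. Its log2 fold change was −1.05 (standard error 0.09, adjusted p = 0.00334), and its groups were separated by 0.88. PSPH, the phosphatase of the last step, measured 7.04, 6.98 and 6.80 with PD98059, against 7.88, 7.94 and 7.87 with DMSO. The log2 fold change of PSPH was −0.96 (standard error 0.08, adjusted p = 0.00334). The intervals of the 3 genes overlap widely, from −1.16 to −0.80 for PHGDH, −1.27 to −0.84 for PSAT1 and −1.15 to −0.76 for PSPH.

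Most genes around the synthesis and use of serine were not called. Of 19 measured genes for the transport, cleavage and use of serine and glycine, 3 were called lower, 0 higher and 16 were not called, with a median log2 fold change of −0.03. The lower ones were SFXN3, a sideroflexin of the mitochondrial membrane, at −0.67 (adjusted p = 0.00477), and CBS and CTH, which pass the sulfur of homocysteine through serine to cysteine. CBS averaged 6.13 ± 0.17 with PD98059 and 7.02 ± 0.14 with DMSO (SD, n = 3 each), a log2 fold change of −0.89 (limma adjusted p = 0.0112). CTH is read by a pair of clusters that both fell. The brighter cluster measured 5.70, 4.53 and 4.91 with PD98059, against 6.65, 6.57 and 6.58 with DMSO, so that PD98059 replicate 1 lay well above the other two. Its log2 fold change of −1.55 (adjusted p = 0.0284) was not called in 5 of the 6 fits without 1 array (adjusted p of 0.0622 to 0.107; only the fit without PD98059 replicate 1 kept the call), and the other cluster had −1.30 (adjusted p = 0.00269). CBS was not called without DMSO replicate 1 (adjusted p = 0.0587) or without DMSO replicate 3 (adjusted p = 0.0503). The sideroflexin SFXN1, a carrier of serine into mitochondria, stood at −0.31 without a call (adjusted p = 0.071). The abundant SPTLC2 and SPTLC1, which use serine for sphingolipids, stood at −0.06 and −0.03, and the glycine cleavage genes DLD and GCSH at 0.09 and 0.27, all without a call. GLDC, another glycine cleavage gene, had 0.34 (adjusted p = 0.0531), also without a call but with treated values wholly above the control values. Of the 19 genes, 11 had a negative log2 fold change, where the median of all clusters was 0.01. Over all clusters, 1.78% were called lower.

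Within the mitochondrial folate pathway, ALDH1L2 and MTHFD2 were lower, and SHMT2, MTHFD1L and MTHFD2L were not called. ALDH1L2, the mitochondrial formyltetrahydrofolate dehydrogenase, measured 7.27, 6.88 and 7.19 in the PD98059-treated cells, against 8.35, 8.16 and 8.26 in the DMSO-treated cells. Its log2 fold change was −1.14 (standard error 0.12, interval −1.42 to −0.87, adjusted p = 0.00527), and it had the widest spread of the 9 genes above background among the treated cultures (SD 0.21). MTHFD2 measured 8.49, 8.36 and 8.42 with PD98059, against 8.98, 8.96 and 8.99 with DMSO. The control cultures of MTHFD2 differed by little (SD 0.02), and the log2 fold change was −0.55 (standard error 0.07, interval −0.71 to −0.40, adjusted p = 0.00856). This is the smallest of the 7 called changes, close to the fold limit, and it was not called without DMSO replicate 1 (adjusted p = 0.0507). SHMT2 measured 9.79, 9.74 and 9.84 with PD98059, against 9.95, 9.88 and 9.92 with DMSO. These groups do not overlap either, but the log2 fold change of −0.13 (interval −0.28 to 0.03, adjusted p = 0.348) was not called and its interval lies inside the fold limit.

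SHMT1, the cytosolic partner of SHMT2, was near background in all 6 cultures. It measured 2.64, 3.01 and 3.07 with PD98059, against 2.92, 3.00 and 2.69 with DMSO, so the groups overlap and the log2 fold change of 0.04 (interval −0.29 to 0.37) is that of a signal below the background level. Of the other folate genes, which make, move and use the remaining carbon units, 0 of 18 measured were called in either direction, with log2 fold changes from −0.18 to 0.28 and a median of −0.03. Among them are the cytosolic enzyme MTHFD1 (0.10) and the mitochondrial MTHFD1L (0.15) and MTHFD2L (0.28). The purine enzymes ATIC and GART stood at −0.06 and −0.03, and TYMS, the thymidylate synthase, at 0.07. FPGS and FOLR1 were on the list and are not analysed here. The list of the methionine cycle, which receives methyl groups from folate, also holds genes of polyamine synthesis. Of its 13 measured genes, 0 were called higher and 1 lower, the spermidine synthase SRM of polyamine synthesis. SRM had −0.60 (adjusted p = 0.00903) and was not called without DMSO replicate 1 (adjusted p = 0.053). AHCYL1, AHCY, MAT2A and AMD1 had 0.02, 0.08, −0.02 and −0.26.

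Of the 2 proline genes, PYCR1 was called lower and ALDH18A1 was not called. PYCR1, which reduces pyrroline-5-carboxylate to proline in mitochondria, measured 8.46, 8.20 and 8.33 in the PD98059-treated cultures, against 9.47, 9.46 and 9.53 in the DMSO-treated cultures. A gap of 1.0 separates the groups. Its log2 fold change of −1.16 (standard error 0.08, interval −1.36 to −0.96, adjusted p = 0.00267) was the largest of the 10 genes, and by the size of its p it ranked 30th of all clusters. ALDH18A1, which makes pyrroline-5-carboxylate from glutamate, measured 8.62, 8.64 and 8.52 with PD98059, against 8.68, 8.57 and 8.61 with DMSO. Those groups overlap, with a log2 fold change of −0.03 (interval −0.19 to 0.14, adjusted p = 0.88). Around them, 0 of 15 measured genes for proline, ornithine and glutamate were called, among them the abundant OAT (0.04), which reaches proline from ornithine, and the collagen prolyl hydroxylases P4HA1 (0.07) and P4HA2 (0.08). The third of these, P4HA3, had −0.39 (adjusted p = 0.0887), with groups that did not overlap. ODC1, which turns ornithine into putrescine, had −0.32 (adjusted p = 0.0578).

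ASNS was lower, while most of the measured genes for aspartate, asparagine and alanine were not called. It measured 9.05, 8.91 and 8.97 with PD98059, against 9.84, 9.68 and 9.72 with DMSO, and the groups lay 0.63 apart. The log2 fold change was −0.77 (standard error 0.08, interval −0.95 to −0.59, adjusted p = 0.00479), a fold of 1.71. Of 14 measured genes for aspartate, asparagine and alanine, 1 was higher and 1 lower. The cytosolic alanine aminotransferase GPT averaged 5.47 ± 0.04 with PD98059 and 4.71 ± 0.04 with DMSO (SD, n = 3 each), a log2 fold change of 0.76 (limma adjusted p = 0.00323). Its mitochondrial relative GPT2 had −0.46 (adjusted p = 0.0134), past the limit on p and just inside that on the fold, as was the asparaginase ASRGL1 at −0.47 (adjusted p = 0.014). BCAT1, the cytosolic aminotransferase of branched-chain amino acids, was lower at −0.64 (adjusted p = 0.0112) and was not called without PD98059 replicate 2, DMSO replicate 1 or DMSO replicate 3 (adjusted p of 0.0517 to 0.0595). MDH2, GOT2 and MDH1 had 0.09, 0.06 and 0.04.

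**Figure D2:**
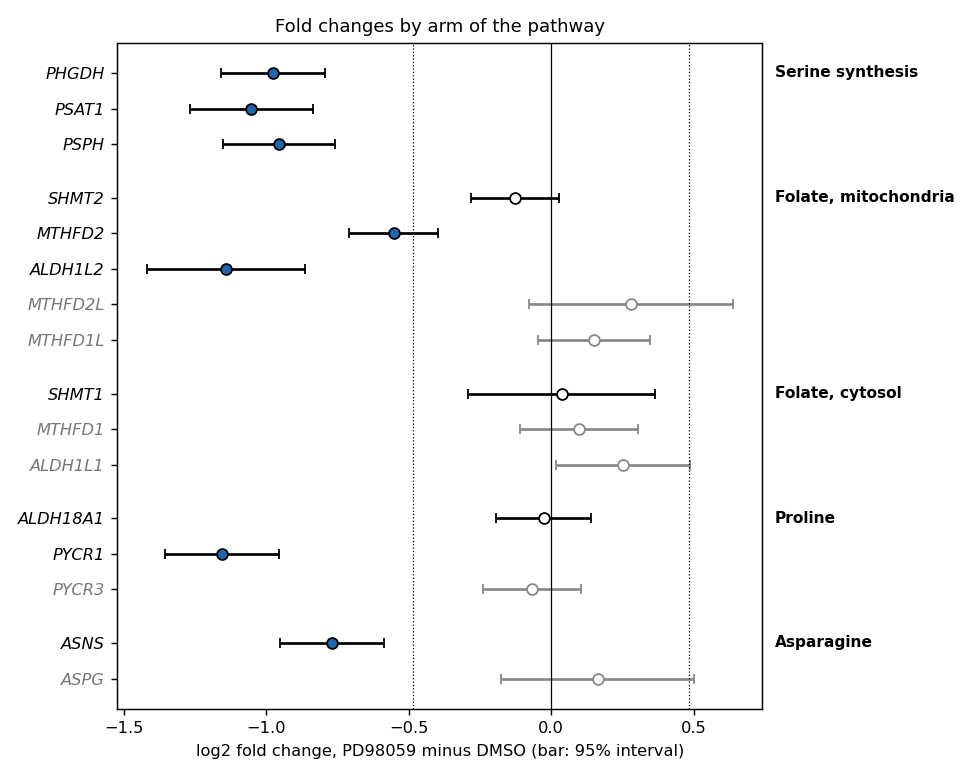
Points are log2 fold changes (PD98059 minus DMSO) with 95% intervals for the 10 genes (black) and for related enzymes of the same routes or, with ASPG, of the reverse direction (grey). Points are filled blue where called lower, and dotted lines mark the fold limit of 1.4. The 3 serine synthesis genes lie between −0.96 and −1.05, while SHMT2, SHMT1 and ALDH18A1 lie between −0.13 and 0.04.

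To set an enzyme beside a partner of the other compartment, of the same step or, for ASNS, of the reverse direction, the difference of their signals was taken within each array. Only the change of this difference can be read, since the probes differ. It changed by −1.397 for ALDH1L2 over the cytosolic ALDH1L1, with 2.50, 2.02 and 2.52 in the PD98059-treated cultures, against 3.73, 3.82 and 3.68 in the DMSO-treated cultures. Part of this change lies in ALDH1L1, whose own log2 fold change was 0.25, without a call. For PYCR1 the difference changed by −1.09 over PYCR3, an enzyme of the same reaction whose own log2 fold change was −0.07. MTHFD2 over MTHFD1 changed by −0.65, with 1.51 ± 0.13 in the PD98059-treated cultures and 2.16 ± 0.12 in the DMSO-treated cultures (SD, n = 3 each). ASNS over ASPG, an asparaginase that breaks asparagine down, changed by −0.93. ASPG itself had a log2 fold change of 0.16, without a call, and an SD of 0.29 with DMSO. The other asparaginase ASRGL1, itself at −0.47, was not used as a partner. In these 4 pairs the groups did not overlap, which gave the smallest p that 3 arrays against 3 allow (exact permutation test, two-sided, p = 0.1, adjusted over the 6 pairs computed p = 0.12), so that this test cannot pass 0.05. SHMT2 over SHMT1 changed by −0.16 with overlapping groups (exact p = 0.4), and its partner was near background.

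**Figure D3:**
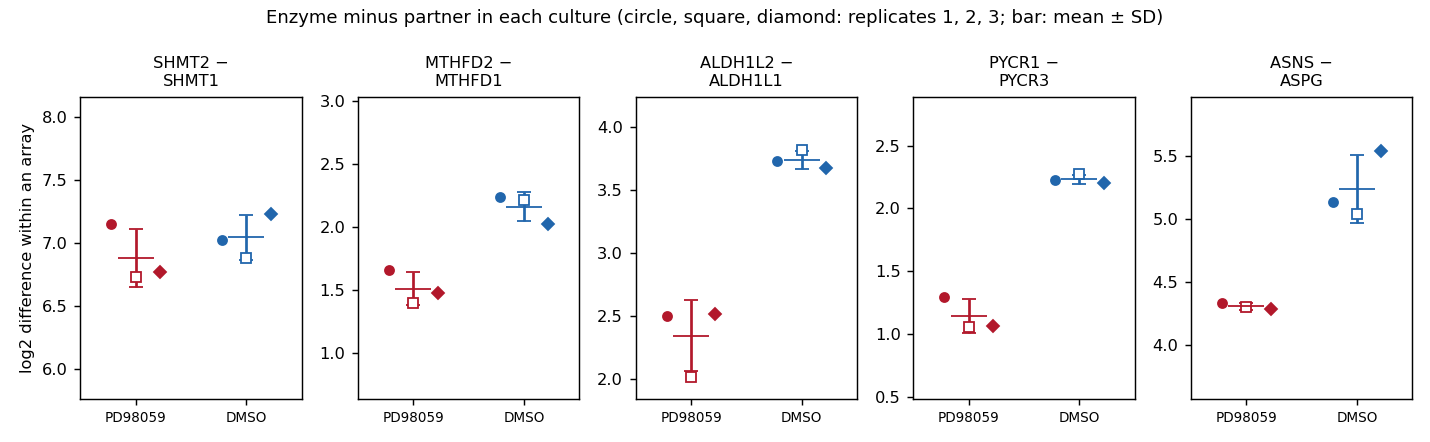
Each panel plots, for every culture, the log2 signal of an enzyme minus that of its partner on the same array, with mean and SD, PD98059 left and DMSO right. The groups are apart in all panels but the first, SHMT2 over SHMT1.

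Among the 7 called genes, the order of the treated cultures was much alike, and that of the control cultures was alike in part. PD98059 replicate 1 had the highest value of the 3 treated cultures in 7 of 7 genes, and PD98059 replicate 2 the lowest in 5 of 7. Averaged over the 7 genes after centring each on its mean, the cultures stood at −0.38, −0.56 and −0.48 with PD98059, against 0.51, 0.42 and 0.48 with DMSO. Among the DMSO-treated cultures, replicate 2 was lowest in 6 of 7, while the highest was replicate 1 in 3 genes, replicate 3 in 3 and replicate 2 in 1. Over all 434 clusters called lower, PD98059 replicate 1 was the highest treated culture in 44.5% and DMSO replicate 2 the lowest control in 49.3%. The spread within a group was of the usual size, with a median SD of 0.10 for the 10 genes with PD98059 and 0.07 with DMSO, beside 0.09 and 0.09 for all clusters above background.

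By the shape of their values over the 6 arrays, the genes most like the mean of the 7 called genes were FABP5, MARS1, SARS1, TMEM241 and SEPTIN2 (Pearson's r of 0.9992 to 0.9982 across 6 arrays, among 13221 named clusters above background). Since the 6 arrays form 2 groups, such an r follows the treatment above all and is given as a description. FABP5, a fatty acid binding protein, fell by 1.43, and the cytosolic tRNA synthetases SARS1 of serine and MARS1 of methionine had −0.60 and −0.37. SEPTIN2 at −0.30 and MARS1 were inside the fold limit, and TMEM241 at −0.52 was not called without DMSO replicate 1 or 3 (adjusted p of 0.0531 to 0.0579).

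Several targets of ATF4 were lower as well, while ATF4 itself was not called. Of 21 measured genes, targets together with ATF4 and regulators upstream of it such as EIF2AK3, 8 were called lower, 0 higher and 13 were not called. Over all clusters, 1.78% were called lower. Of the 21, 19 had treated values wholly below the control values, beside 13.0% of all clusters. TRIB3, a pseudokinase that is induced by this response, measured 4.56, 4.40 and 4.70 with PD98059, against 6.11, 6.01 and 5.92 with DMSO (log2 fold change −1.46, adjusted p = 0.00193). CHAC1, which degrades glutathione, had −1.33 (adjusted p = 0.00323), SESN2, a leucine sensor, −0.87, and DDIT3, the factor CHOP, −0.83. The transcript of ATF4 measured 10.43, 10.18 and 10.37 with PD98059, against 10.66, 10.69 and 10.77 with DMSO, a log2 fold change of −0.38 that was not called (adjusted p = 0.0612). XPOT, EIF2AK3 and DDIT4, the other abundant genes, had −0.32, −0.23 and 0.29. PCK2 at −0.90, STC2 at −0.81, GADD45A at −0.59 and NUPR1 at −0.57 were called on the 6 arrays, but the calls of PCK2, STC2 and GADD45A were lost in 5 of the 6 fits without 1 array (adjusted p of 0.0517 to 0.114) and that of NUPR1 in 3, those without PD98059 replicate 2, DMSO replicate 1 or DMSO replicate 2. Without PD98059 replicate 2 or without DMSO replicate 1, 4 of the 21 were called lower, and in the other such fits 5 to 7. STC2 was near background with PD98059 (3.67, 3.50 and 3.37) and averaged 4.33 with DMSO. The list was chosen with earlier results of these arrays known, and CEBPB is not analysed here.

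Among carriers of amino acids, a list that also holds carriers of cystine, of large neutral and of basic amino acids, most were called lower. Of 10 measured carriers, 7 were called lower and 0 higher, beside 1.78% and 0.909% of all clusters. Their median log2 fold change was −0.71. This list too was chosen with earlier results of these arrays known. SLC6A9, a glycine carrier, measured 6.71, 6.06 and 6.27 with PD98059, against 7.81, 7.54 and 7.71 with DMSO (log2 fold change −1.34, adjusted p = 0.0102). SLC1A5 and SLC1A4, which exchange neutral amino acids such as glutamine and serine, had −1.24 and −1.02. SLC7A11, the cystine carrier, stood at −0.84, SLC7A5, the carrier of large neutral amino acids, at −0.76, and SLC3A2, the subunit both share, at −0.66. SLC7A1, the carrier of arginine and lysine, had −0.49, at the fold limit, and lost its call in each fit without 1 array (adjusted p of 0.0641 to 0.0822). Without DMSO replicate 1, SLC6A9 (adjusted p = 0.0546) and SLC3A2 (adjusted p = 0.0524) were not called, which left 4 of 10. The most abundant carriers, SLC38A2 at 0.06 and SLC38A1 at −0.06, were not called. Of the 7 measured tRNA synthetases of serine, glycine, proline and asparagine, SARS1 at −0.60 and GARS1 at −0.65 were lower, GARS1 not without DMSO replicate 1 or 3 (adjusted p of 0.0523 to 0.0574). EPRS1 at −0.18 and NARS1 at −0.09, cytosolic like them, were not called, nor were the mitochondrial SARS2 (0.02), PARS2 (0.02) and NARS2 (0.13).

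**Figure D4:**
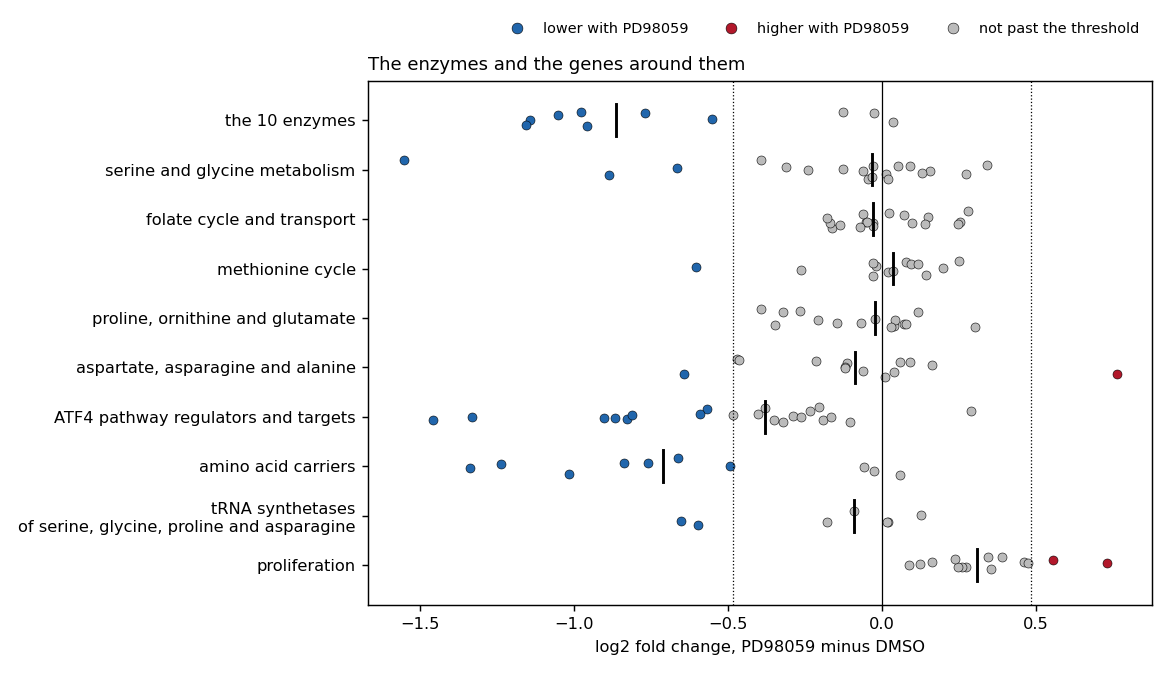
Each point is the log2 fold change (PD98059 minus DMSO) of 1 gene in the list named at the left, blue where called lower, red where called higher and grey where not called; black bars are medians and dotted lines the fold limit of 1.4. The 10 enzymes (median −0.86) and the carriers (−0.71) lie left of the folate (−0.03) and proline (−0.02) lists.

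Taking the lists of serine, folate, methionine, proline, aspartate, ATF4, carrier and synthetase genes as a whole, 22 of 117 measured genes (18.8%) were called lower and 1 higher, beside 1.78% and 0.909% of all clusters. The lists were chosen with earlier results of these arrays known, so this share is only a description. Of the 22, 8 were from the ATF4 list and 7 from the carriers, while the folate and proline lists had 0. PD98059 replicate 1 was the highest treated culture in 16 of the 22, beside 44.5% of all clusters called lower. Genes of the cell cycle, in which carbon units of folate are used for DNA, had no call on the lower side. All 14 measured had a positive log2 fold change, with a median of 0.31, beside 0.01 for all clusters. TK1, a thymidine kinase, rose by 0.73 (adjusted p = 0.00719) and TOP2A by 0.56 (adjusted p = 0.0134). TOP2A was not called without PD98059 replicate 2 or 3 or DMSO replicate 1 or 3 (adjusted p of 0.0562 to 0.0662). PCNA at 0.12, MCM5 at 0.34 and MCM6 at 0.24 were not called. Nor was MKI67 at 0.46, past the limit on p (adjusted p = 0.016) and just inside that on the fold. Whether this shift has a part in the values of the enzymes was not tested.

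The 6 arrays had medians of 4.69 to 4.74 with PD98059 and of 4.68 to 4.70 with DMSO. Markers of granulosa cells were above background in 9 of 9 cases, and 6 of them were called higher, beside 0.909% of all clusters. CYP19A1, by 2.01, and FSHR, by 1.12, were among the 4 that kept the call in every fit without 1 array. The summed signal of all 9, on the log2 scale, was 13.64 to 13.65 with PD98059 and 13.02 to 13.07 with DMSO. Of the fibroblast and smooth muscle markers, 11 of 11 were above background. PDGFRA, PDGFRB, TAGLN and CNN1, 4 of the 11, were called lower, beside 1.78% of all clusters. CNN1 was called in none of the fits without 1 array (adjusted p of 0.0529 to 0.13). The summed signal of all 11 was 12.93 to 13.02 with PD98059 and 13.06 to 13.08 with DMSO, and the abundant LUM (−0.17), POSTN (−0.03) and COL3A1 (0.20) were not called. The smooth muscle marker MYH11 was not called either, with a log2 fold change of 0.62 (adjusted p = 0.0694) and treated values wholly above the control values. Theca markers summed to 8.91 to 8.96 with PD98059 and to 8.32 to 8.41 with DMSO, nearly all of it INSL3, which was called higher. CYP17A1 was near background, and LHCGR averaged 4.04 with PD98059 and 3.87 with DMSO (log2 fold change 0.17), without a call. The paper reports INSL3 as induced by PD98059 in granulosa cells, so its signal here need not come from theca cells. Of the endothelial markers 3 of 4 were near background, and VWF, the other one, was called lower at −0.57 (adjusted p = 0.0284; lost in 5 of the 6 fits without 1 array, adjusted p of 0.0691 to 0.109), with a summed signal of 5.75 to 5.79 with PD98059 and of 5.99 to 6.15 with DMSO. Of the oocyte markers, 4 of 4 were near background. Immune markers, 4 of 5 above background, summed to 7.74 to 8.12 with PD98059 and to 7.74 to 7.83 with DMSO, with no call. The part of these cells in the enzyme values was not tested.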

How the data were processed

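Total RNA of the 6 cultures was hybridised to GeneChip Bovine Gene 1.0 ST arrays. Background correction, normalization and the summary of each transcript cluster by RMA were done by the authors in Expression Console, and the deposited values are log2 signals rounded to 2 decimals. No coordinates are printed, with the genome build of the clusters not given in the sources used here. A second deposited table holds the same log2 values in all 146490 cells. RMA sets the arrays to a common distribution, which would hide a change that most transcripts share. The labels name reagents for labelling from the 3′ end, and the reach of each probe set along its gene is unknown.

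Columns were matched to samples by name, and 0 sample columns were left unmatched. The 10 genes were taken by the symbol in the table. Other clusters were named through RefSeq accessions of ARS-UCD2.0 (16051 clusters) or by their single symbol (3636), and a gene with several clusters is represented by the brightest. In R 4.3.3, limma 3.58.1 (lmFit, then eBayes) was run on all 24415 clusters with treatment as the only factor and no filter. The median SD within groups was 0.12, and having 3 arrays a group limits the precision. The fit was tested on simulated data. Differences within arrays were tested by exact permutation in 6 pairs, of which 1 is not reported here. Alternatives changed the scaling, the filter, the variance model, the test, the thresholds, the block and the arrays included. Named genes are the 10 enzymes, the genes of each pathway list that were called, up to 4 others of each such list by level, the partners in the pairs and the 5 most similar profiles. SFXN1, GLDC, MTHFD2L, GPT2, NARS2 and P4HA3 were added after their values were seen, and cell markers are named in part. The members and lists were chosen with earlier results of these data known. Tables were made with Python 3.11.15 and pandas 2.3.3.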

Additional observations from a re-analysis of the deposited data

How the results depend on the processing

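The 7 calls among the 10 enzymes held with arrays centred on their medians, a second quantile normalization, only clusters above background, a variance trend, array weights, an unmoderated test, several clusters of a gene averaged, no fold limit and an FDR under 0.01. With the replicate number as a block 6 were called, without MTHFD2 (adjusted p = 0.0563), and the counts over all clusters fell to 162 lower and 75 higher. No source says if the numbers mark a pairing. Deviations of same-numbered arrays correlated with r of 0.04 to 0.05 and those of other arrays with r of −0.0362 to −0.0025. Each array thus correlated best with its own number, but r of this size cannot decide whether there was a pairing. With a fold above 2 in place of 1.4, 3 of the 10 were called (68 clusters lower and 19 higher), and with limma's treat, which asks for a fold beyond 1.4 in the test itself, 1 was called (PYCR1, adjusted p = 0.039; 30 clusters lower and 8 higher). Without 1 array, 6 to 7 of the 10 were called lower and 0 higher, among 174 to 331 clusters lower and 97 to 160 higher, the fewest without DMSO replicate 1. The unmoderated test called 227 clusters lower and 123 higher, an FDR under 0.01 called 179 and 93, and no fold limit 689 and 421. Over all alternatives the log2 fold change of PYCR1 lay between −1.22 and −1.09, that of PHGDH between −1.03 and −0.94 and that of MTHFD2 between −0.59 and −0.52. The genes not called near 0 changed sign: SHMT1 had −0.014 with the second quantile normalization and −0.053 to 0.170 without 1 array, below 0 without PD98059 replicate 2 or 3 or DMSO replicate 3, and ALDH18A1 had −0.052 to 0.010 without 1 array, above 0 without PD98059 replicate 3 (0.010) or DMSO replicate 1 (0.003). The cause of these changes was not tested. The pair differences reported kept their direction without any 1 array. SHMT1 was not fitted above background. The calls in the lists were less stable. With the block, CBS, CTH, SRM, BCAT1, NUPR1, STC2, GADD45A, SLC7A1, TK1 and TOP2A lost theirs. Among the markers, so did FOXL2, HSD17B1, INHBA, INSL3, PDGFRA, CNN1 and VWF. The unmoderated test called 6 genes of the ATF4 list and 5 carriers lower. With treat, only TRIB3, CHAC1 and SLC1A5 of the 22 called lower in the pathway lists were kept.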
